A study of Mus musculus with 6 samples.

Results

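The 10 genes described here, Spic, Cd5l, Vcam1, Cd163, Siglec1, Marco, Hpgd, Axl, Mertk and Adgre1, are known from the macrophages of the red pulp and marginal zone of the spleen. They were chosen by name among the 55421 genes counted in each library, and all 10 had enough counts to be tested among 13849 genes. Their messenger RNA was followed in splenic monocytes of mice with or without the interleukin-4 receptor alpha chain, IL-4Rα. The chain is a shared part of the receptors for interleukin-4 and interleukin-13, and the study asked how its loss alters the transcriptome of monocytes held in the spleen. Cells were enriched by magnetic negative selection from spleens of C57BL/6 mice, 3 of the IL-4Rα+/+ and 3 of the IL-4Rα-/- genotype, and each mouse gave 1 library, so that the p-values measure the spread between mice. The knockout is a full one, so that IL-4Rα was lacking in every cell of the animal and not in monocytes alone. No treatment is given for these mice. The animals were adult, and the labels give neither the age nor the sex of a mouse.

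Macrophages of the red pulp take up aged red blood cells, break down their heme and return the iron to the blood. Macrophages of the marginal zone lie where blood enters the spleen and bind microbes and particles, and the metallophilic macrophages next to them carry sialoadhesin, the product of Siglec1. Blood monocytes that enter the spleen can give rise to red pulp macrophages, and the 2 populations share surface proteins, F4/80 among them. A negative selection keeps every cell that the antibodies do not bind, so that cells other than monocytes can stay in the preparation.

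Promoter sequences of the genes are shown first, and their part in the levels of the genes was not tested. RefSeq starts (GRCm38.p6) were found for 7 of the 10 genes, all but Vcam1, Siglec1 and Adgre1. The 250 bases before the start are given for Spic and Axl, the pair whose levels varied most alike over the libraries. They are also given for Mertk, the close relative of Axl, and for Cd5l and Marco, a secreted and a membrane-bound scavenger protein. Capitals mark GAGGAA or its reverse complement, the core of the PU box bound by ETS factors of the PU.1 and Spi-C family.
Spic, chr10:88683024-88683273, minus strand: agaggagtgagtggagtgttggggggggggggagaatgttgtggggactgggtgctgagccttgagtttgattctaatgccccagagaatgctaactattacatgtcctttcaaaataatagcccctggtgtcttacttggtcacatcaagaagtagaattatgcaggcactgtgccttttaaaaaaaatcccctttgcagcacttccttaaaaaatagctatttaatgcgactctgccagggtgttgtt
Axl, chr7:25788734-25788983, minus strand: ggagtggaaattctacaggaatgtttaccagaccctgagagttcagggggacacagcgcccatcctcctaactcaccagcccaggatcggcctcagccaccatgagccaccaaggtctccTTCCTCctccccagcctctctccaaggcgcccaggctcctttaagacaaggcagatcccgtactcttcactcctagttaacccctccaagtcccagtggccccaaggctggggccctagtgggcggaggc
Mertk, chr2:128698665-128698914, plus strand: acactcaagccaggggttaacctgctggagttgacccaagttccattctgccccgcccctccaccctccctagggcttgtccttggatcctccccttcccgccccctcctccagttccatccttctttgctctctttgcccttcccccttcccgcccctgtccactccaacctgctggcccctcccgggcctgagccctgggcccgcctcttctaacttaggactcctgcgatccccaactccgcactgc
Cd5l, chr3:87357631-87357880, plus strand: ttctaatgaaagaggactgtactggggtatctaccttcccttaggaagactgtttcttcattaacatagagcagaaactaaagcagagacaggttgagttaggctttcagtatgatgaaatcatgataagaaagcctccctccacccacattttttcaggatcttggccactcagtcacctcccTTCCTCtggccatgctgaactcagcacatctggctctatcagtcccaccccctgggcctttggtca
Marco, chr1:120505025-120505274, minus strand: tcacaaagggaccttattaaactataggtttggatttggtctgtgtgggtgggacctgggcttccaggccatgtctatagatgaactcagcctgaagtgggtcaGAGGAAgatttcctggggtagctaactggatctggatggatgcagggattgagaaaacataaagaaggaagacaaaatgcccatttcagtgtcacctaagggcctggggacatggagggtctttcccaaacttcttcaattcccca
GAGGAA, read on both strands from 250 bases before to 50 bases after the start, was found in 4 of the 7 promoters, against 28.3% of 32851 mouse promoters of the same length. Its first base lay 66 bases before the start in Cd5l, 130 in Axl, 146 in Marco and 230 in Hpgd. TGACNNNGC, the core of the antioxidant response element that heme and oxidative stress act through, was found in 0 of the 7 promoters and in 12.4% of all promoters. The promoters differed widely in composition. GC content was 66.0% in Mertk, 60.3% in Axl and 58.0% in Hpgd, against 47.3% in Marco, 46.3% in Cd5l, 45.0% in Spic and 38.0% in Cd163, with a median of 52.7% over all promoters. Such matches describe letters in these windows and no binding.

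Reads counted on genes numbered 26807281 to 29033297 per library, and levels are given as CPM, counts scaled to a common library total, after TMM scaling, edgeR's correction for library composition. The genes had 257 to 37888 counts per library, far above the 3 counts taken as the limit of detection. Il4ra (chr7:125552120-125579474, GRCm38), the targeted gene, was at 137, 128 and 177 CPM in IL-4Rα+/+ and at 27.9, 79.4 and 31.8 CPM in IL-4Rα-/- replicates 1, 2 and 3. All 3 IL-4Rα-/- values were lower, with replicate 2 nearest to the controls. The 14 monocyte markers together reached 22672 to 26855 CPM. Xist, the transcript of the inactive X chromosome, was at 553 CPM in IL-4Rα+/+ replicate 1 and 457 CPM in IL-4Rα-/- replicate 3, and the other 4 libraries carried the Y-linked Ddx3y at 113 to 149 CPM. Each genotype thus held 1 library with Xist reads and 2 with Ddx3y reads.

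Compared per kilobase of exon, the genes spanned a wide range of levels. Hpgd was highest, at 243 CPM per kilobase on average over the 6 libraries, followed by Adgre1 at 156. Axl at 90.7, Vcam1 at 89.5 and Cd5l at 85.2 CPM per kilobase formed a middle group. Spic followed at 29.1, Cd163 at 17.3 and Mertk at 16.8, and Siglec1 and Marco, the 2 genes of the marginal zone, were lowest at 10.5 and 9.84 CPM per kilobase. Several neighbours in this order could not be ranked beyond their spread. Axl exceeded Vcam1, Vcam1 exceeded Cd5l and Cd163 exceeded Mertk in only 4 of 6 libraries, and Siglec1 exceeded Marco in 3 of 6. Hpgd exceeded Adgre1, and Mertk exceeded Siglec1, in 5 of 6. Adgre1 was above Axl, Cd5l above Spic and Spic above Cd163 in 6 of 6 libraries. Even Marco lay at the 65.5th percentile of the tested genes and Hpgd at the 98.9th.

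Between genotypes, 9 of the 10 genes were higher on average in IL-4Rα-/- than in IL-4Rα+/+ mice and 1, Siglec1, was lower. The differences were moderate, from 1.14-fold for Adgre1 to 1.72-fold for Cd163 among the 9 higher genes, and none passed the study's threshold of an adjusted p under 0.15. In the quasi-likelihood test of edgeR, adjusted by the method of Benjamini and Hochberg, 0 of 13849 genes passed it (0%), the smallest adjusted p being 0.618. At an unadjusted p under 0.05, 2 of the 10 genes, Cd5l and Vcam1, were higher and 0 were lower, while 3.72% of all genes were higher and 4.37% lower at that level, 8.09% in all. The study had applied that threshold in DESeq2 and not in edgeR. In DESeq2, 80 genes or 0.571% passed an adjusted p under 0.15, none of the 10 among them. There 5 of the 10 genes, Cd5l, Vcam1, Cd163, Axl and Mertk, were higher at an unadjusted p under 0.05. Of the 25728 genes that DESeq2 tested, with no filter on low counts, 2.36% were higher at that level, or 4.7% in either direction. These shares include low-count genes that the 3.72% over 13849 genes left out. The median log2 fold change of the 10 genes was 0.51, against 0.0084 over all genes, of which 51.5% were higher. In 2 of the 10 genes, Spic and Axl, all 3 IL-4Rα-/- libraries lay above all 3 IL-4Rα+/+ libraries, as did 7.63% of all genes, with a further 7.87% lying below, 15.5% in all.

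**Figure D1:**
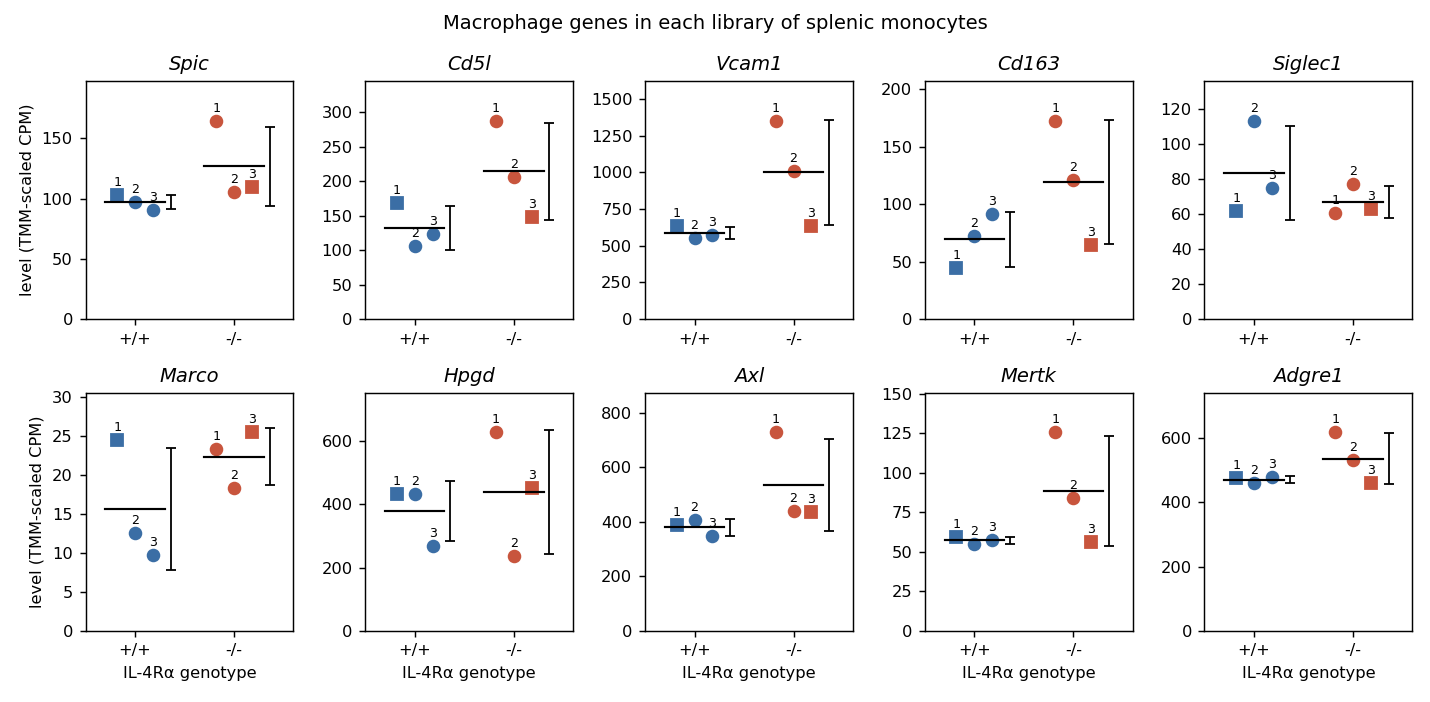
Level of each of the 10 genes in TMM-scaled CPM (vertical axes, linear from 0) in 3 IL-4Rα+/+ (blue) and 3 IL-4Rα-/- (red) libraries, numbered by replicate, with squares for the libraries that hold Xist reads, horizontal lines for means and bars for SD. IL-4Rα-/- replicate 1 is the highest library in 8 of 10 panels, and only in Spic and Axl do the genotypes not overlap.

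Spic encodes the ETS transcription factor Spi-C, which red pulp macrophages need for their development. Spic (chr10:88674772-88685015) stood at 103, 97.2 and 90.9 CPM in IL-4Rα+/+ replicates 1, 2 and 3, and at 165, 106 and 110.0 CPM in IL-4Rα-/- replicates 1, 2 and 3. The genotypes did not overlap, but IL-4Rα-/- replicates 2 and 3 were at only 1.09 and 1.13 times the IL-4Rα+/+ mean. The mean was 97.0 ± 6.04 in IL-4Rα+/+ and 127 ± 32.8 CPM in IL-4Rα-/- (SD, n = 3 each). The log2 fold change was 0.39 with a standard error of 0.18 (edgeR, unadjusted p = 0.0687, adjusted p = 0.619). Without IL-4Rα-/- replicate 1 it was 0.15.

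Adhesion and the scavenging of hemoglobin and lipids are the work of the next 3 genes, and they had the largest ratios. Vcam1 (chr3:116109949-116129688) encodes an adhesion molecule that binds the integrin α4β1 and holds cells in the red pulp. Its level was 634, 556 and 572 CPM in the IL-4Rα+/+ libraries and 1353, 1013 and 634 CPM in the IL-4Rα-/- libraries. IL-4Rα-/- replicates 1 and 2 lay above every control, while replicate 3 matched IL-4Rα+/+ replicate 1. The mean was 587 ± 41.5 CPM in IL-4Rα+/+ and 999.9 ± 359.5 CPM in IL-4Rα-/- (SD, n = 3 each), a log2 fold change of 0.77 with a standard error of 0.26 (edgeR, unadjusted p = 0.0212, adjusted p = 0.618). The antisense gene Gm43109 overlaps exons of Vcam1 but held only 1 to 6 counts per library. Vcam1 had the smallest adjusted p of the 10 genes in DESeq2, at 0.240.

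Cd5l (chr3:87357881-87371073) encodes a secreted scavenger protein of tissue macrophages. It was measured at 168, 107 and 123 CPM in IL-4Rα+/+ and at 288, 207 and 149 CPM in IL-4Rα-/- libraries. Here too IL-4Rα-/- replicates 1 and 2 exceeded all controls and replicate 3 lay among them. Means were 133 ± 31.8 and 214 ± 69.9 CPM (SD, n = 3 each), with a log2 fold change of 0.69 and a standard error of 0.27 (edgeR, unadjusted p = 0.0388, adjusted p = 0.618). Cd163 (chr6:124304656-124330527), the receptor for complexes of haptoglobin and hemoglobin, was at 44.2, 72.4 and 91.6 CPM in IL-4Rα+/+ and at 173, 121 and 64.3 CPM in IL-4Rα-/- libraries. It had the largest ratio of means, 1.72, but also the widest spread, since IL-4Rα-/- replicate 3 lay below 2 of the 3 controls. Its log2 fold change was 0.78 with a standard error of 0.40 (edgeR, unadjusted p = 0.0918, adjusted p = 0.632).

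The receptors for dying cells, Axl and Mertk, are tyrosine kinases that bind phosphatidylserine on a target through Gas6 or, for Mertk, also protein S. Axl (chr7:25757273-25788705) was at 388, 405 and 346 CPM in IL-4Rα+/+ and at 728, 438 and 436 CPM in IL-4Rα-/- libraries. The genotypes did not overlap, although IL-4Rα-/- replicates 2 and 3 were at only 1.15 times the control mean against 1.92 for replicate 1. The log2 fold change of Axl was 0.49 with a standard error of 0.21 (edgeR, unadjusted p = 0.0559, adjusted p = 0.618). Mertk (chr2:128698956-128802894) was at 59.2, 54.9 and 57.2 CPM in the controls and at 125, 83.8 and 56.3 CPM in the knockout libraries. IL-4Rα-/- replicate 3 was at the control level and replicate 1 at 2.20 times the control mean. Its log2 fold change was 0.63 with a standard error of 0.27 (edgeR, unadjusted p = 0.0517, adjusted p = 0.618).

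The differences of the 2 marginal zone genes had opposite signs. Siglec1 (chr2:131069220-131086765), the sialic acid-binding receptor of metallophilic macrophages, was at 61.9, 114 and 75.1 CPM in IL-4Rα+/+ and at 60.6, 77.3 and 63.2 CPM in IL-4Rα-/- libraries. IL-4Rα+/+ replicate 2 alone was high, and the other 5 libraries lay between 60.6 and 77.3 CPM. The log2 fold change was -0.32 with a standard error of 0.23 (edgeR, unadjusted p = 0.209, adjusted p = 0.696), and it was -0.03 without that library. Marco (chr1:120474538-120505024), a scavenger receptor for bacteria on marginal zone macrophages, was at 24.5, 12.6 and 9.70 CPM in IL-4Rα+/+ and at 23.3, 18.3 and 25.4 CPM in IL-4Rα-/- libraries. IL-4Rα+/+ replicate 1 lay among the knockout libraries and the other 2 controls lay below them. The log2 fold change of Marco was 0.52 with a standard error of 0.34 (edgeR, unadjusted p = 0.174, adjusted p = 0.669), and 1.00 without IL-4Rα+/+ replicate 1. Cd209b, a lectin that defines marginal zone macrophages, was at only 0.717 to 2.00 CPM in the 6 libraries.

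Hpgd and Adgre1, the most abundant of the 10 genes per kilobase, differed least. Hpgd (chr8:56294585-56321043) encodes the dehydrogenase that inactivates prostaglandin E. It was at 434, 433 and 269 CPM in IL-4Rα+/+ and at 628, 236 and 453 CPM in IL-4Rα-/- libraries. The low libraries were IL-4Rα+/+ replicate 3 and IL-4Rα-/- replicate 2, 1 in each genotype. In those same libraries Ace, a gene of non-classical monocytes, was lowest within its genotype, at 1088 and 710.0 CPM against 1604 to 2774 CPM in the other 4, and Ccr2, a gene of classical monocytes, was highest, at 1668 and 2008 CPM against 380.4 to 1045 CPM. Ace and Ccr2 were singled out after their values were seen, and their part in the level of Hpgd was not tested. The log2 fold change of Hpgd was 0.21 with a standard error of 0.36 (edgeR, unadjusted p = 0.575, adjusted p = 0.849), and it turned to -0.14 without IL-4Rα-/- replicate 1. Adgre1 (chr17:57358691-57483527), which encodes F4/80, an adhesion receptor of macrophages that monocytes also carry, was at 474, 459 and 479 CPM in IL-4Rα+/+ and at 618, 532 and 459 CPM in IL-4Rα-/- libraries. The controls were close together and IL-4Rα-/- replicate 3 was just below them. Its log2 fold change was 0.19 with a standard error of 0.12 (edgeR, unadjusted p = 0.148, adjusted p = 0.659).

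**Figure D2:**
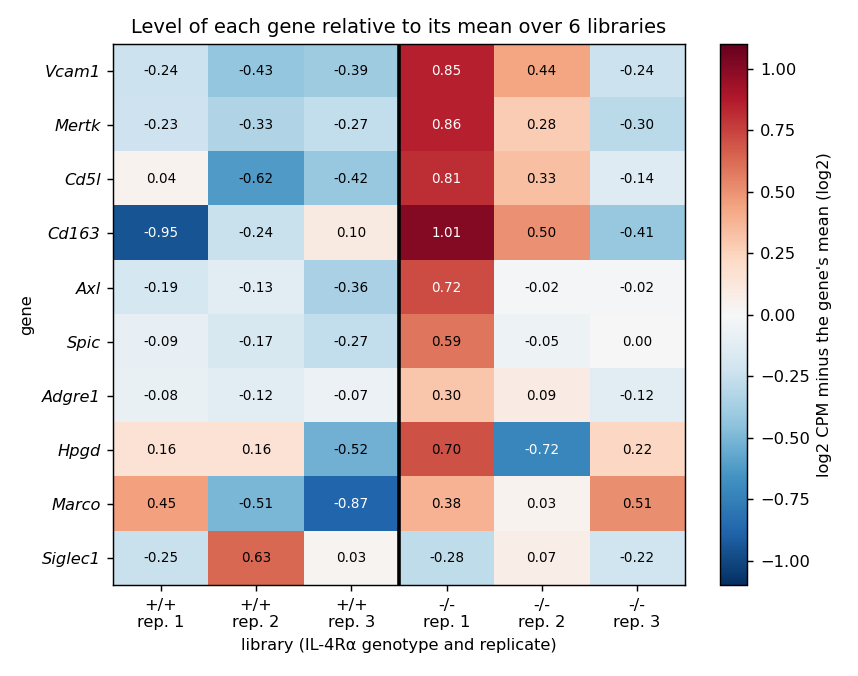
Log2 CPM of each gene (rows) in each library (columns) minus the gene's own mean over the 6 libraries, with the value printed in each field and red for higher. Values of 0.30 to 1.01 fill the column of IL-4Rα-/- replicate 1 except for Siglec1 at -0.28, and the mean of the column of IL-4Rα-/- replicate 3 is -0.072.

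The differences between genotypes rested on IL-4Rα-/- replicate 1 more than on any other library. This library was the highest for 8 of the 10 genes, and for 6 of them IL-4Rα-/- replicate 2 came second. Against the range of the 3 controls, IL-4Rα-/- replicate 1 lay above it in 8 genes, within it in 1 and below it in 1. IL-4Rα-/- replicate 2 lay above in 7, within in 2 and below in 1, and replicate 3 lay above in 4, within in 5 and below in 1. The mean centred log2 level of the 10 genes was 0.594, 0.0956 and -0.0717 in IL-4Rα-/- replicates 1, 2 and 3 and -0.137, -0.177 and -0.304 in the IL-4Rα+/+ libraries. IL-4Rα-/- replicate 3 was nearer to IL-4Rα+/+ replicate 1 than to the other knockout libraries. In IL-4Rα-/- replicate 1 the ratio to the control mean was 2.49 for Cd163, 2.30 for Vcam1, 2.20 for Mertk, 2.17 for Cd5l, 1.92 for Axl, 1.70 for Spic, 1.66 for Hpgd, 1.50 for Marco, 1.31 for Adgre1 and 0.726 for Siglec1. The 4 scavenging, adhesion and clearance genes at the head of this order also led the ratio of the genotype means. IL-4Rα-/- replicate 1 is itself part of the IL-4Rα-/- mean, so the 2 orders are not independent.

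Without IL-4Rα-/- replicate 1, 8 of the 10 log2 fold changes were still above 0, but their median was 0.24. Vcam1 was then at 0.48, Cd5l at 0.42, Cd163 at 0.41 and Mertk at 0.29, and 0 of the 10 genes had an unadjusted p under 0.05, a level at which 1.78% of all genes were higher in that fit. The same count was 0 without IL-4Rα+/+ replicate 2, against 2.15% of all genes, and 0 without IL-4Rα+/+ replicate 3, against 5.11%. Without IL-4Rα-/- replicate 3 it was 6, each of them higher, against 3.36% of all genes. In those 5 libraries 7 of the 10 genes did not overlap between genotypes and were higher, as were 13.5% of all genes. The same number was 5 without IL-4Rα+/+ replicate 1, against 12.3% of all genes, and 4 without IL-4Rα-/- replicate 2, against 11.7%.

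**Figure D3:**
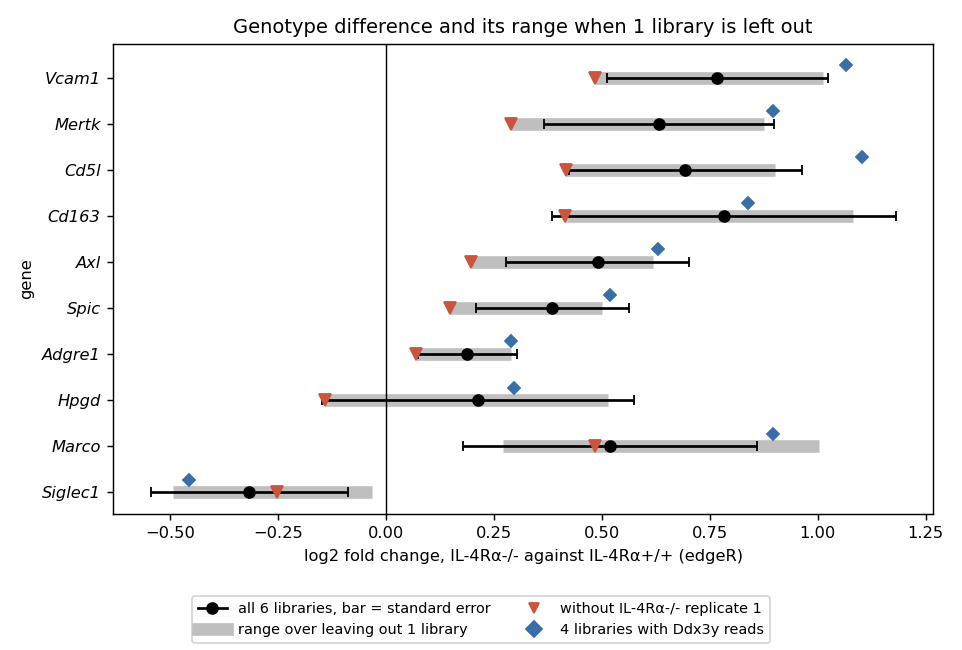
Log2 fold change of each gene, IL-4Rα-/- against IL-4Rα+/+ by edgeR (horizontal axis), with black points and bars for the estimate and its standard error over 6 libraries, grey bars for the range when 1 library is left out, red triangles for the fit without IL-4Rα-/- replicate 1 and blue diamonds for the 4 libraries with Ddx3y reads. Hpgd alone crosses 0 when 1 library is left out, reaching -0.14.

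In each of the 10 genes the ratio between genotypes lay nearer to 1 in the libraries with Xist reads than in those with Ddx3y reads, a split made after the values were seen. Between the 2 libraries with Xist reads, the ratio of IL-4Rα-/- to IL-4Rα+/+ ran from 0.884 for Cd5l to 1.46 for Cd163 and was over 1 in 6 of the 10 genes. Vcam1 was at 634 CPM in both of these libraries. Among the 4 libraries with Ddx3y reads the ratio was 2.15 for Cd5l, 2.10 for Vcam1, 1.87 for Marco, 1.87 for Mertk, 1.79 for Cd163, 1.55 for Axl, 1.44 for Spic, 1.23 for Hpgd, 1.23 for Adgre1 and 0.731 for Siglec1. In 8 of the 10 genes, all but Hpgd and Siglec1, both knockout libraries then lay above both controls, as did 18.9% of all genes, with 36.5% not overlapping in either direction. In that fit 5 genes, Cd5l, Vcam1, Cd163, Marco and Mertk, were higher at an unadjusted p under 0.05, against 2.48% of all genes, and each had an adjusted p of 0.855 (edgeR, Benjamini-Hochberg). A term for the difference between the 2 genotype effects had an unadjusted p of 0.0140 for Cd5l, 0.0162 for Vcam1 and 0.0495 for Mertk, 3 of 10 genes against 3.04% of all genes, and an adjusted p of 1.00 for every one of the 10 (edgeR). That term rests on 1 library with Xist reads per genotype, so that its spread comes from the 4 other libraries alone and the lone libraries are assumed to vary like them. With 1 such mouse per genotype, sex and the single mouse cannot be told apart.

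The genes were compared by their profile over the 6 libraries, measured as the root mean square distance of centred log2 CPM. Spic and Axl were closest at 0.0802, Vcam1 and Mertk followed at 0.0930, and Cd5l lay 0.149 from Vcam1. Adgre1 was nearest to Spic at 0.164. Hpgd at 0.351, Cd163 at 0.357, Siglec1 at 0.398 and Marco at 0.423 had no neighbour as close, and Cd163 and Marco were the farthest pair at 0.861. Among 9672 other genes of at least 5 CPM, those nearest to the mean profile of the 10 genes were Atxn1 at 0.0423, Actn1 at 0.0545, Cd81 at 0.0662, Gna12 at 0.0762 and Plxna1 at 0.0776. All 10 genes and these 5 share the same libraries and scaling, so the distances are a description of 6 samples.

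Other genes of splenic macrophages were examined as lists, 5 lists with 85 tested genes in all. None of their genes passed the adjusted threshold. Of 18 other markers of splenic macrophages, 15 were higher on average in IL-4Rα-/- and 3 lower, with a median log2 fold change of 0.34. At an unadjusted p under 0.05, 6 were higher and 0 lower, against 3.72% and 4.37% of all genes. Some genes stand on more than 1 list, Slc40a1 also on that of heme and iron recycling and Epor on that of the erythroid markers. Slc40a1, the iron exporter ferroportin, was at 551, 531 and 453 CPM in IL-4Rα+/+ and at 1143, 636 and 679 CPM in IL-4Rα-/- libraries, a log2 fold change of 0.68 with a standard error of 0.23 (edgeR, adjusted p = 0.618). All 3 knockout libraries were above the controls, with replicate 1 far above the rest as for most of the 10 genes. Fcna, which encodes ficolin A, had a log2 fold change of 0.71 ± 0.22 (standard error), and Epor, the erythropoietin receptor, 1.00 ± 0.30 at only 2.57 to 9.25 CPM. Itgad, the integrin chain CD11d of red pulp macrophages, was singled out after its values were seen, at 134, 126 and 134 CPM in IL-4Rα+/+ and at 319, 231 and 146 CPM in IL-4Rα-/- libraries. It followed the order of Vcam1 and Mertk, with replicate 1 highest, replicate 2 next and replicate 3 near the controls. Not every marker of the list kept that order. Clec4n, with the smallest unadjusted p of the list, was at 167, 173 and 127 CPM in IL-4Rα-/- replicates 1, 2 and 3. The 3 lower markers were Treml4, Fcgr4 and Folr2, with log2 fold changes of -0.25, -0.46 and -0.05, Folr2 at only 0.135 to 0.525 CPM.

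Heme and iron recycling, the main task of red pulp macrophages, gave 9 higher and 9 lower genes of 18 with a median log2 fold change of 0.023. At an unadjusted p under 0.05, 6 were higher and 2 lower, against 3.72% and 4.37% of all genes. The 2 lower genes were Lrp1, a receptor that takes up heme with hemopexin, with a log2 fold change of -0.37 ± 0.10, and Bach1, a heme-sensing repressor, with -0.26 ± 0.072 (standard errors). Slc40a1 had the largest log2 fold change of the list. The other 5 higher genes were Hmox1, Blvra and Blvrb, which break down heme and biliverdin, and the ferritin genes Fth1 and Ftl1, whose counts may be shared with pseudogene copies. Their log2 fold changes lay between 0.29 and 0.54, and they were named after their values were seen.

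Clearance of dying cells, the task of Axl and Mertk, gave 12 higher and 6 lower genes of 18 tested, with a median log2 fold change of 0.098. The 3 genes at an unadjusted p under 0.05 were C1qa, C1qb and C1qc, the chains of complement C1q, with log2 fold changes of 0.62 ± 0.19, 0.63 ± 0.18 and 0.62 ± 0.19 (standard errors). Over all genes, 3.72% were higher at that level. C1qb was at 289, 268 and 261 CPM in IL-4Rα+/+ and at 526, 424 and 315 CPM in IL-4Rα-/- libraries. All 3 knockout libraries lay above the controls, in the same order as for Vcam1 and Cd5l. Gas6 encodes a ligand of Axl and Mertk, and Pros1 encodes protein S, a ligand of Mertk. Their log2 fold changes were 0.48 and 0.10, and neither passed an unadjusted p of 0.05.

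Factors of the macrophage lineage gave 7 higher and 11 lower genes of 18, with a median log2 fold change of -0.086. Maf at 0.46 ± 0.19 and Tfec at 0.79 ± 0.30 were higher at an unadjusted p under 0.05, and Smad3, a mediator of TGF-β signals, was lower at -0.51 ± 0.17 (standard errors). Spi1, which encodes PU.1, had a log2 fold change of -0.067, and Spic, which encodes another PU-box factor, 0.39. Neither was at an unadjusted p under 0.05. Partners and ligands of the 10 genes gave 10 higher and 8 lower genes of 18, with a median of 0.059. Itga4, the integrin α4 chain that binds Vcam1 protein, was at 1212, 1469 and 1070 CPM in IL-4Rα+/+ and at 771, 692 and 845 CPM in IL-4Rα-/- libraries. The genotypes did not overlap, and its log2 fold change was -0.70 ± 0.14 (standard error), opposite in sign to that of Vcam1 (edgeR, unadjusted p = 0.00171, adjusted p = 0.618). Hba-a1, the ligand of Cd163 once bound to haptoglobin, had a log2 fold change of 1.47, and Cd55, the ligand of an adhesion receptor related to F4/80, 1.07 at 3.02 to 10.5 CPM.

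**Figure D4:**
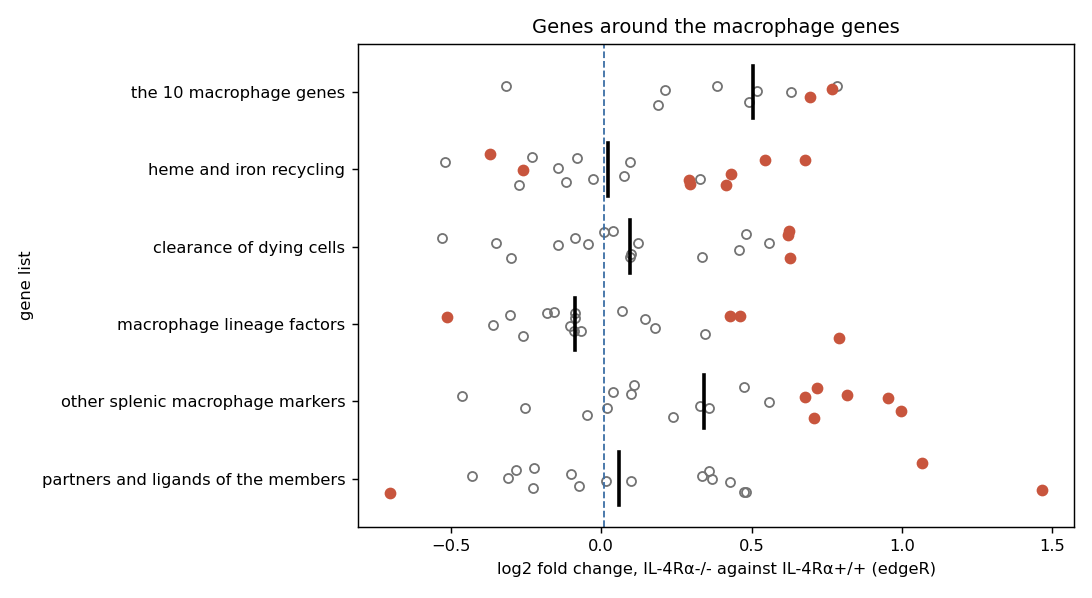
Log2 fold change, IL-4Rα-/- against IL-4Rα+/+ by edgeR (horizontal axis), of the 10 genes and of the tested genes of the 5 other lists, with filled points for an unadjusted p under 0.05, black bars for medians and a dashed line for the median over all genes, 0.0084. The median of the 10 genes is 0.51 and that of the other splenic macrophage markers 0.34, while those of the remaining 4 lists lie between -0.086 and 0.098.

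Markers of other cells also differed between the libraries, and in bulk samples fewer cells of a type and less RNA per cell cannot be told apart. The summed level of the 14 monocyte markers was 22672 to 26419 CPM in IL-4Rα+/+ and 23294 to 26855 CPM in IL-4Rα-/-, with 6 higher and 8 lower genes. Lyz2 made up the largest part of it, at 8847 to 17025 CPM, and single markers varied more than the sum, such as Ccr2 at 380.4 to 2008 CPM and Ace at 710.0 to 2774 CPM. Erythroid markers, 11 of 12 higher, summed to 100.1 to 156 CPM in IL-4Rα+/+ and 205 to 484 CPM in IL-4Rα-/-, highest in replicate 3, where the summed level of the 10 genes was lowest among the knockout libraries. Hba-a1 was at 12.9 to 25.1 against 33.9 to 81.6 CPM. Neutrophil markers, 8 of 9 higher, and pancreatic acinar markers, 9 of 9 higher, were both highest in IL-4Rα-/- replicate 2, at 610.5 and 299.7 CPM. In the neutrophil list, S100a8 was at 10.7 ± 6.86 CPM in IL-4Rα+/+ and 46.8 ± 39.8 CPM in IL-4Rα-/- (SD, n = 3 each), and Ly6g at no more than 0.315 CPM. In the acinar list, Prss2 reached 2.95 CPM in IL-4Rα+/+ and 29.9 CPM in IL-4Rα-/-, and Prss1 had no reads.

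Of the 12 lists of markers, 4 were highest in IL-4Rα-/- replicate 1, the library that was highest for most of the 10 genes. Eosinophil markers, 3 of 4 higher, summed to 65.9 to 71.3 CPM in IL-4Rα+/+ and to 154, 105 and 94.6 CPM in IL-4Rα-/- replicates 1, 2 and 3. That order was the one seen in Vcam1, Cd5l and Mertk. The sum came mostly from Ccr3, at 52.7 to 67.1 CPM in IL-4Rα+/+ and 73.4 to 137 CPM in IL-4Rα-/-. Siglecf, which defines eosinophils, was lower on average in IL-4Rα-/-. It was at 0.755 to 1.48 CPM in IL-4Rα+/+ and 0.665 to 0.812 CPM in IL-4Rα-/-. Basophil and mast cell markers, 6 of 7 higher, summed to 16.2 to 27.5 CPM in IL-4Rα+/+ and to 69.5, 35.3 and 52.4 CPM in IL-4Rα-/-. Mcpt8 was at 1.70 to 5.81 against 7.71 to 15.6 CPM and Cpa3 at 0.217 to 1.21 against 2.17 to 3.89 CPM. Megakaryocyte markers, 3 of 3 higher, summed to 2.93 to 3.93 CPM in IL-4Rα+/+ and to 3.50 to 7.14 CPM in IL-4Rα-/-. Endothelial and stromal markers, 2 of 9 higher, summed to 130.4 to 234 and 161 to 248 CPM. Most of that sum was Pecam1, at 64.6 to 117 CPM over the 6 libraries, Stab2, at 31.7 to 69.4 CPM, and Vwf, at 21.5 to 54.0 CPM. Pecam1 and Stab2 were highest in IL-4Rα-/- replicate 1, but IL-4Rα+/+ replicate 1 was close in Pecam1, at 116 against 117 CPM. The list sum in these libraries was 234 and 248 CPM. Cdh5 was at 0.350 to 1.27 CPM and Kdr at 2.42 to 4.22 CPM. Vcam1 is also made by endothelium, and the part of endothelial cells in its level was not tested.

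Of the remaining lists, plasma cell markers, 4 of 7 higher, summed to 769 to 857 CPM in IL-4Rα+/+ and to 961 to 1359 CPM in IL-4Rα-/-. Within that sum, Igha was at 245, 232 and 268 CPM in IL-4Rα+/+ and at 694, 569 and 439 CPM in IL-4Rα-/- libraries. Sdc1, Prdm1 and Irf4 were lower on average in IL-4Rα-/-. B cell markers, 6 of 8 higher, T and NK cell markers, 4 of 9 higher, and dendritic cell markers, 2 of 8 higher, overlapped between genotypes in their sums. The part of these cells in the levels of the 10 genes was not tested. Between IL-4Rα-/- replicate 1 and the controls, the summed level of the 10 genes was 1.83 times the control mean, and the same ratio was 1.25 in replicate 2 and 1.08 in replicate 3. The sum of the monocyte markers in these 3 libraries was 0.931, 1.07 and 1.03 times the control mean. The sum of the 10 genes came mostly from Vcam1, Axl, Hpgd and Adgre1. In IL-4Rα-/- replicate 1 these were at 1353, 728, 628 and 618 CPM of a sum of 4161 CPM.

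**Figure D5:**
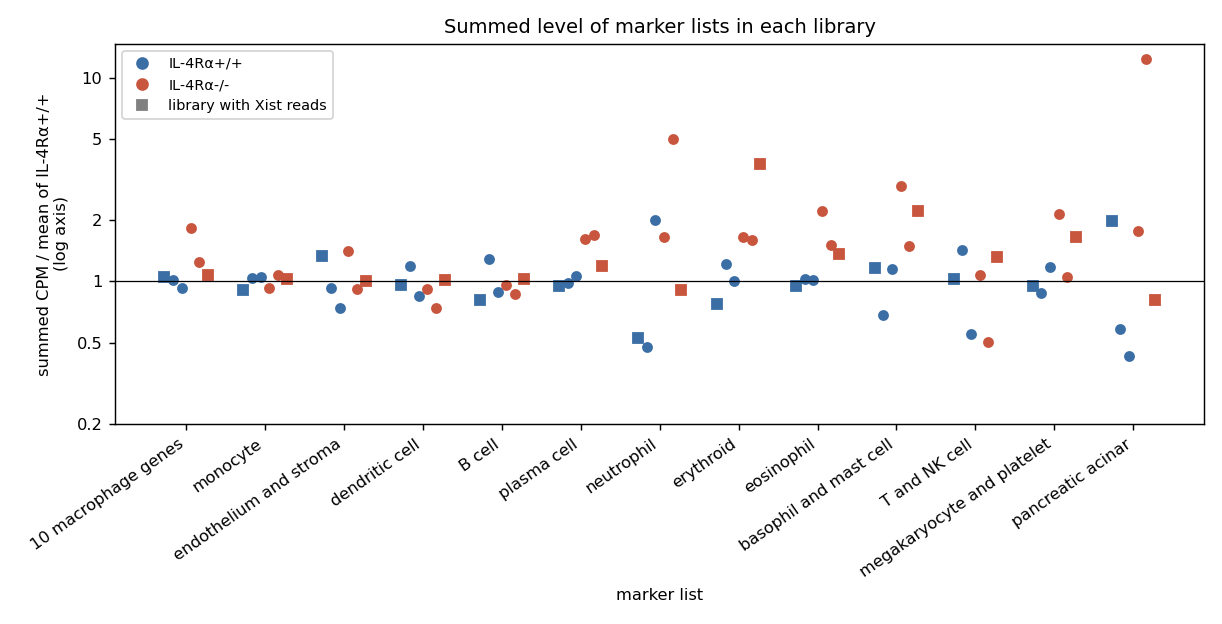
Summed CPM of the 10 genes and of 12 lists of cell type markers in each library, divided by the mean of the 3 IL-4Rα+/+ libraries (vertical axis, log scale), in blue for IL-4Rα+/+ and red for IL-4Rα-/-, with squares for libraries with Xist reads. The 10 genes stand at 1.83, 1.25 and 1.08 in IL-4Rα-/- replicates 1, 2 and 3, beside a sum of the monocyte markers between 0.906 and 1.07 in all 6 libraries.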

How the data were processed

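RNA was sequenced as single-end reads of 75 bp from polyadenylated, directional libraries of splenic monocytes, 1 per mouse. The authors aligned the reads to GRCm38 with STAR 2.6.1a and deposited raw counts per gene, 55421 genes in each of 6 libraries, without normalization. The strand setting of the counting is not given in the sources used here, so overlapping genes are uncertain. STAR's 4 summary rows, 21.1% to 22.8% of reads, were left out. Gene names, positions and exon lengths came from Gencode M21, in which 55240 gene identifiers were found, and promoter sequences from RefSeq.

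Genes were kept by filterByExpr of edgeR 4.0.16 in R 4.3.3 with a minimum count of 10. TMM scaling and the quasi-likelihood test compared the genotypes, with Benjamini-Hochberg adjustment over all 13849 genes and the study's threshold of 0.15. Standard errors came from the same test. DESeq2, the tool that the study used for this comparison, was an alternative here, in version 1.42.0. Centred log2 CPM used a prior count of 2. The steps were tested on simulated data for this comparison, in which edgeR recovered 87% of 200 genes changed 4-fold with 33 false calls, against 88.5% and 102 false calls in DESeq2. Changes as small as those of the 10 genes were not simulated. One count was 0.0344 to 0.0373 CPM.

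The genes, lists and tests were chosen with earlier results of these data known. Named were the 10 genes, Il4ra, the 2 lowest and the highest log2 fold change among genes of each list at an unadjusted p under 0.05 (all of them where there were 5 or fewer), the first 2 markers of cell type lists that moved with the genes, and the 5 genes of the nearest profile. Itgad, Clec4n, Treml4, Fcgr4, Folr2, Hmox1, Blvra, Blvrb, Fth1, Ftl1, Gas6, Pros1, Spi1, Cd209b, Ace, Ccr2, Lyz2, Pecam1, Stab2, Vwf, Igha, Sdc1, Prdm1 and Irf4 were named outside this rule, after their values were seen. The result of 1 gene that the rule names is not reported here.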

Additional observations from a re-analysis of the deposited data

How the results depend on the processing

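The 10 genes kept their direction in 129 of 130 values under the alternatives. The exception was Hpgd, whose log2 fold change ran from -0.14 without IL-4Rα-/- replicate 1 to 0.51 without IL-4Rα-/- replicate 2. None of the 10 genes passed the adjusted threshold under any alternative, and the lowest adjusted p was 0.240, for Vcam1 in DESeq2, where 80 genes passed in all. The number of the 10 genes at an unadjusted p under 0.05 was 5 in DESeq2, against 2.36% of 25728 genes higher. It was 6 without a filter on low counts, against 2.52% of 25753 genes higher. Both of these shares include low-count genes. In the 4 libraries with Ddx3y reads, an alternative chosen after seeing the data, it was 5, against 2.48% of all genes higher. When 1 library was left out it was 0 to 6, against 1.78% to 5.11% of all genes higher. The number of genes that did not overlap was 8 in those 4 libraries, against 18.9% of all genes higher without overlap, and 2 to 7 when 1 library was left out, against 10.6% to 18.8%. The median log2 fold change ranged from 0.24 without IL-4Rα-/- replicate 1 to 0.63 without IL-4Rα-/- replicate 2. DESeq2's size factors in place of TMM gave 2 genes at an unadjusted p under 0.05, against 3.7% of all genes higher. Library totals gave 3, against 5.24% higher and 2.81% lower. Sex as a covariate also gave 3, against 3.43% of all genes higher, but they were Vcam1, Cd163 and Marco, and Cd5l was no longer among them. With the replicate number as a block, 3 of the 10 genes were at an unadjusted p under 0.05, against 2.92% of all genes higher, with a median log2 fold change of 0.50. Same-numbered libraries had correlations of 0.185, -0.271 and -0.296 in their deviations from the group means, so the numbers were not taken to pair the mice. The lowest count of any of the 10 genes in a library was 257, and no smaller depth was simulated. The cause of these changes was not tested.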
